A study of Mus musculus with 4 samples.

Results

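Chylomicrons are the lipoprotein particles in which enterocytes export dietary fat. Fatty acids are taken up at the brush border, joined to monoacylglycerol and diacylglycerol to form triglyceride in the endoplasmic reticulum, and loaded by a transfer protein onto apolipoprotein B before smaller apolipoproteins complete the particle. The small intestine is the usual site of this process, whereas the colon absorbs mainly water, salts and short-chain fatty acids.

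The 10 genes described here were listed by symbol: 5 apolipoproteins (Apoa1, Apoa4, Apob, Apoc2 and Apoc3), the transfer protein Mttp, the acyltransferases Mogat2, Dgat1 and Dgat2, and the fatty acid receptor Cd36. All 10 were found among 20901 annotated genes with exon blocks in the mm9 assembly. The libraries came from total small intestine and total colon of untreated C57BL/6 mice aged 9 to 10 weeks, with 1 library per tissue and protocol. In the cDNA fragmented protocol, polyadenylated RNA was copied from an oligo-dT primer into full-length cDNA that was fragmented afterwards, and strand was lost. In the RNA fragmented protocol, RNA was broken before ligation of adaptors, so that strand was kept. The labels give RNA depleted of ribosomal RNA for these libraries, whereas the methods of the study describe polyadenylated RNA. The read totals of these libraries, 36419942 in small intestine and 37466674 in colon, are below those the paper lists for its RNA fragmented libraries. For cDNA fragmentation the totals are the same. Which RNA was used, and whether the methods describe these RNA fragmented read sets, is not settled here. The methods name jejunum and distal colon. The study describes both tissues as coming from the same animals, but which mice stand behind each library is not given in the sources used here.

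With 1 library in each cell of the design, no replicate error exists and no test between tissues was made. Intervals are given at the 95% level and cover counting error only, since reads of amplified libraries are not independent molecules. Uniquely placed reads numbered 22484041 in small intestine and 24798934 in colon for cDNA fragmentation, and 2035386 and 3478387 for RNA fragmentation. Levels are given as RPKM, that is, reads per 1000 exonic bases and per 1000000 reads with a unique placement in the library. A gene was called higher in a tissue when its RPKM there was at least 3 times the RPKM of the other tissue plus 1. In bulk tissue, fewer cells of a type and less RNA per cell cannot be told apart.

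Every listed gene had more RPKM in small intestine than in colon in both protocols. By cDNA fragmentation 10 of 10 genes were called higher in small intestine, against 2.72% of 16543 genes present in at least 1 of the libraries, while 3.21% were called higher in colon. By RNA fragmentation 9 of 10 were called higher in small intestine, against 3.69% of 15135 genes, and 6.68% were called higher in colon. The exception was Cd36. With each start point counted once, reads of a strand beginning at the same base count as 1. In that setting 7 of 10 were called by cDNA, without Dgat1, Dgat2 and Cd36, and 9 of 10 by RNA fragmentation. Of all genes present, 2.43% by cDNA and 3.54% by RNA fragmentation were then called higher in small intestine. Together the 10 genes held 1.60% of the uniquely placed reads in the cDNA fragmented small intestine library and 0.0189% in colon, and 2.68% and 0.0593% in the RNA fragmented libraries. After 0.1 RPKM had been added, the median log2 ratio of small intestine to colon was 5.99 by cDNA and 5.56 by RNA fragmentation over the 10 genes, beside -0.36 and -0.42 over all genes present.

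**Figure D1:**
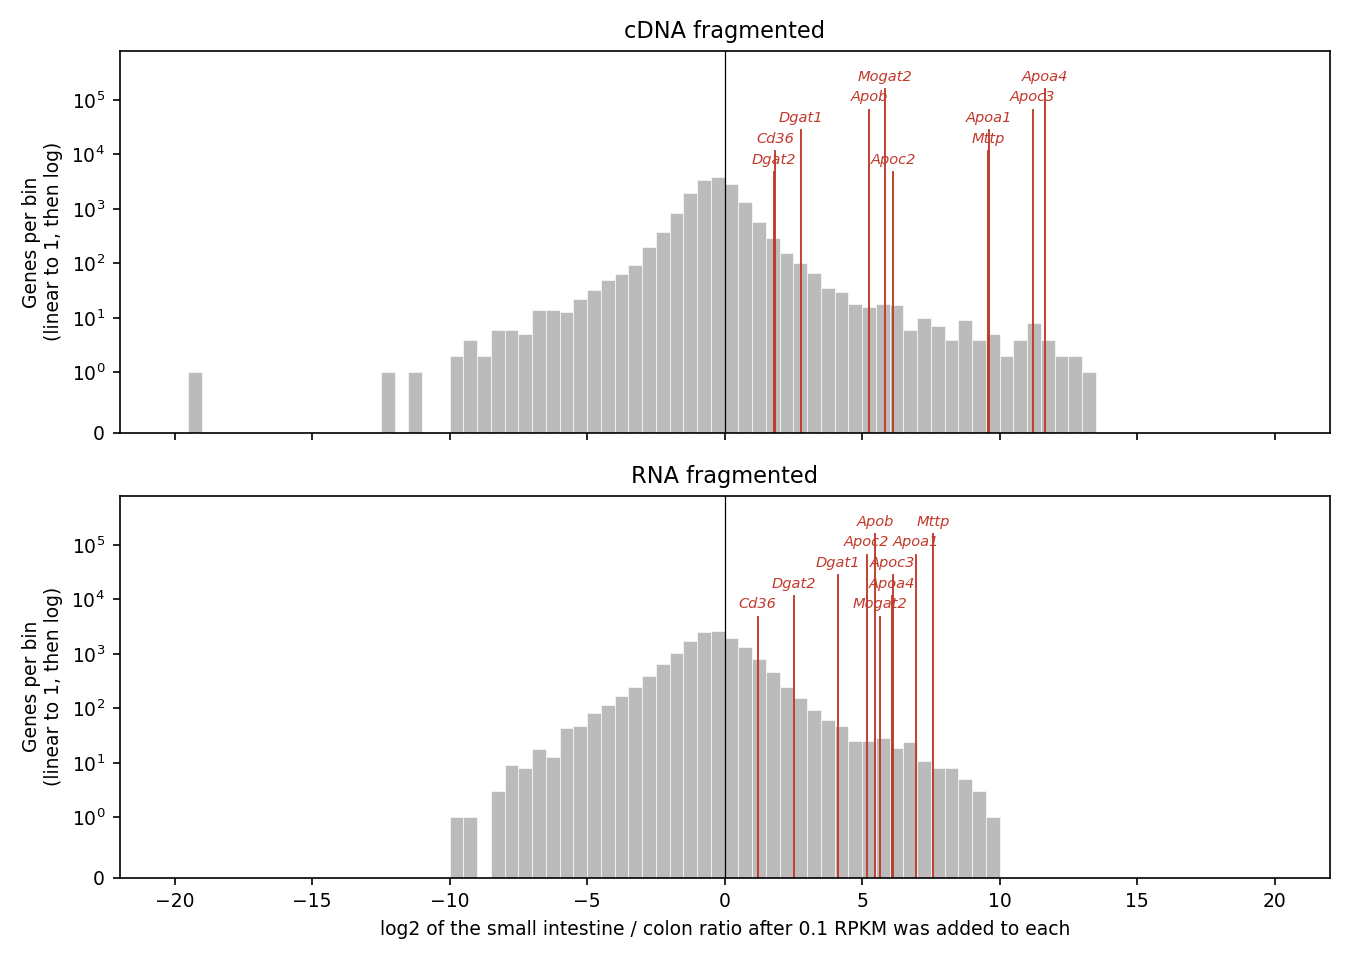
Number of genes (vertical axis, linear to 1 and then logarithmic) by log2 ratio of small intestine to colon after 0.1 RPKM was added (horizontal axis), for all genes present in each protocol, with the 10 listed genes as red lines. All red lines lie to the right of 0, from 1.80 for Dgat2 to 11.63 for Apoa4 by cDNA fragmentation and from 1.20 for Cd36 to 7.57 for Mttp by RNA fragmentation.

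The sequence that matters most in this set is the editing site of Apob, where the deaminase Apobec1 can turn a glutamine codon of the mRNA into a stop codon and so shorten the protein. The site was found by its codon CAA in the reading frame followed by the mooring motif, spelled TGATCAGTA on the mRNA strand and starting 4 to 8 bases after the C. Of 22594 genes with an annotated coding sequence, 2 (Apob and Wap) hold this arrangement, or 0.00885%. In Apob the C lies at position 8014860 of chromosome 12 on the plus strand of mm9, in codon 2179, with 48.3% of the coding sequence before it, inside block 26 of 29. That block is the longest of the gene, with 7467 bases. The genomic window chr12:8014800-8014920 is printed 5′ to 3′, with the codon and the motif in capitals.

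Apob: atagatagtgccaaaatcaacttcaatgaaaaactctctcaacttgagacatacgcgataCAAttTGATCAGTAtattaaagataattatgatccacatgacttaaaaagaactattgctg

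Apob encodes the scaffold protein of the particle, 1 molecule of which stays with it throughout. The gene (ENSMUSG00000020609.8, chr12:7984454-8023641, plus strand, 13909 exonic bases) had 24026 reads in the cDNA fragmented small intestine library and 657 in colon, and 27833 and 1061 in the RNA fragmented libraries. These counts correspond to 76.8 and 1.90 RPKM by cDNA and to 983 and 21.9 RPKM by RNA fragmentation. Both small intestine libraries lay far above both colon libraries. Over the whole gene the ratio was 40.3 (37.3 to 43.7) by cDNA and 44.8 (42.2 to 47.7) by RNA fragmentation, and these intervals overlap. The level itself differed between protocols, being 12.8-fold higher in the RNA fragmented small intestine library and 11.5-fold higher in colon.

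Reads of Apob were not spread alike along the transcript, whose exonic length was divided into 10 equal parts. In the cDNA fragmented libraries 88.9% of the small intestine reads and 89.2% of the colon reads fell in the 5 parts nearest the 3′ end, compared with 56.2% and 53.3% by RNA fragmentation. The last part alone took 36.6% and 50.1% of the cDNA reads. The tissue ratio stayed above 1 in each of the 10 parts. By cDNA fragmentation it ranged from 29.5 (26.4 to 33.1) in the last part to 109 (29.8 to 908) in the first. The first part held 2 colon reads by cDNA fragmentation. By RNA fragmentation the ratio ranged from 33.4 to 54.7. In the last part it was 50.4 (42.1 to 60.9) by RNA fragmentation, so the intervals of the protocols did not overlap there. Nor did they in part 8 from the 5′ end, where the cDNA ratio was the larger. There it was 57.1 (45.1 to 73.5), against 37.0 (31.4 to 43.9) by RNA fragmentation.

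**Figure D2:**
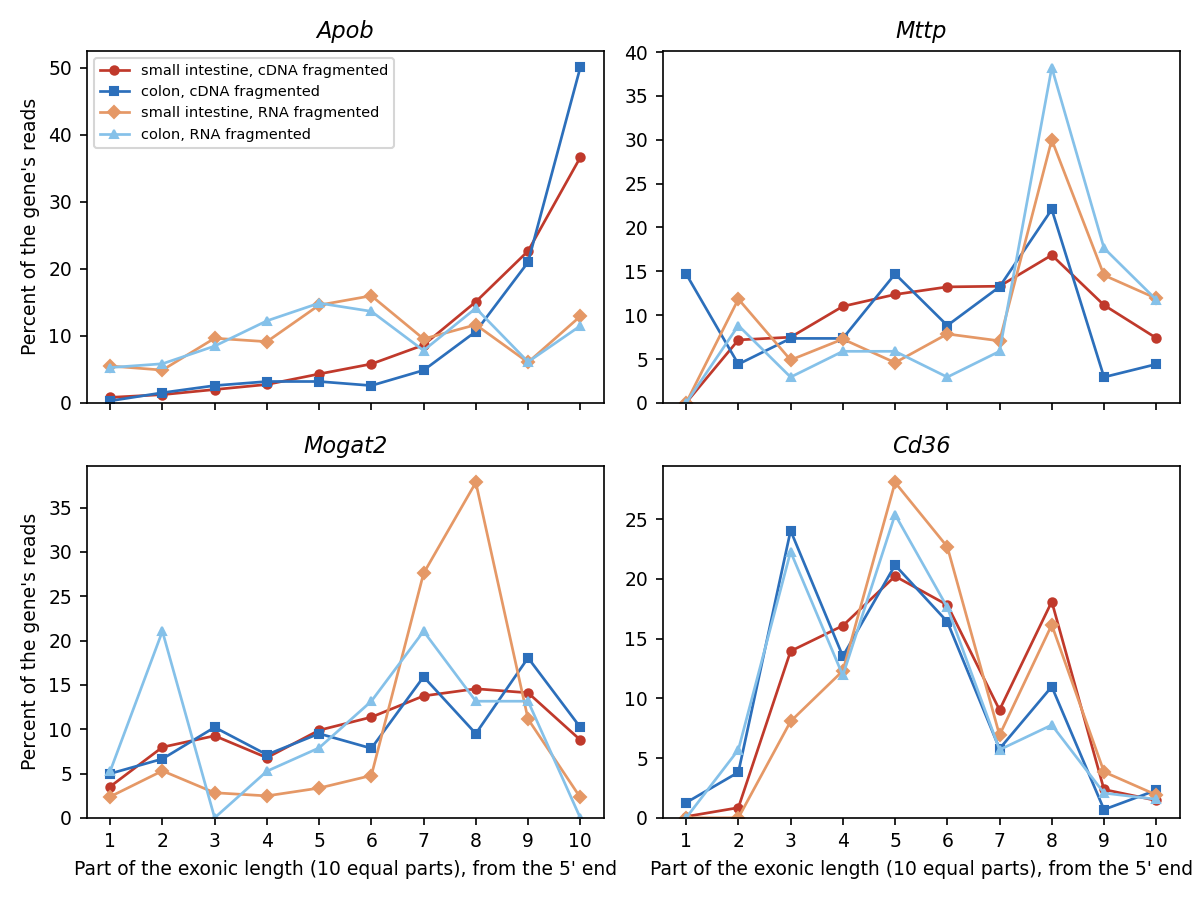
Percent of each gene's reads (vertical axis) in each of 10 equal parts of its exonic length from the 5′ end (horizontal axis) for Apob, Mttp, Mogat2 and Cd36, with 1 line per library. The Apob reads of the cDNA fragmented libraries climb towards the 3′ end, with 36.6% of small intestine reads in the last part, while the RNA fragmented reads are more even.

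Reads over the Apob editing site were few. A SOLiD read gives a color for each pair of neighbouring bases, so a C-to-T change alters the colors on both sides of the base. In the RNA fragmented small intestine library 11 reads from 6 start points covered the site, of which 9 carried T and 2 carried C. Each of the 6 start points had a read with T, and 1 of them also had the reads with C. The edited share was 81.8% (exact binomial interval 48.2% to 97.7%). This interval takes the 11 reads as independent, although they share 6 start points. Matching allowed up to 3 mismatches, and a change to T alters 2 colors. Whether reads with T were placed less often than reads with C was not tested. At most 1 read covered the site in each other library and none was readable there, so no share could be given and the tissues could not be compared. In the same RNA fragmented library the pooled share of T at the other C positions of Apob was 0.246% of 192846 readings. However, 16 of 2261 such positions with at least 20 readings exceeded 5%, and the highest reached 49.4%. Depth at the site was 11 reads, against a median of 65 and a range of 6 to 870 over the positions within 500 bases on each side. In the cDNA fragmented small intestine library it was 1 read, against a median of 23 and a range of 1 to 52.

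Apobec1, the deaminase that edits Apob, stood at 54.2 RPKM in small intestine and 48.5 in colon by cDNA, and at 15.6 and 16.2 by RNA fragmentation, and was called in neither. A1cf, its RNA-binding cofactor, had 18.6 and 4.45 RPKM by cDNA and 52.0 and 26.0 by RNA fragmentation, with ratios of 4.19 (3.76 to 4.68) and 2.0 (1.73 to 2.32). It was called higher in small intestine by cDNA fragmentation and not by RNA fragmentation.

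Mttp encodes the microsomal protein that transfers lipid onto Apob. The gene (ENSMUSG00000028158.8, chr3:137752819-137806352, minus strand, 4410 exonic bases) had 54984 and 68 reads in small intestine and colon by cDNA, and 3944 and 34 by RNA fragmentation. Its levels were 555 and 0.622 RPKM by cDNA and 439 and 2.22 RPKM by RNA fragmentation. The ratio was 892 (703 to 1149) by cDNA and 198 (142 to 287) by RNA fragmentation, the highest of the 10 genes by the latter. The few colon reads were placed differently: the first 3 of 21 exon blocks, counted from the 5′ end and singled out after their values were seen, held 13 cDNA reads from small intestine against 10 from colon, a ratio of 1.43 (0.58 to 3.65). In the other 18 blocks the reads numbered 54577 and 58, a ratio of 1038 (803 to 1367). The RNA fragmented libraries had no read in the first 3 blocks.

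Apoa1, Apoc3 and Apoa4 lie next to each other within chromosome 9, between positions 46036663 and 46051542, with Apoc3 on the minus strand and its neighbours on the plus strand. Apoa1 encodes the main protein of high-density lipoprotein and is also secreted on chylomicrons. Apoa1 (ENSMUSG00000032083.8, chr9:46036663-46038549, 985 exonic bases) reached 7048 RPKM in small intestine against 9.01 in colon by cDNA, and 3613 and 28.9 by RNA fragmentation. It ranked 11th among all genes in the cDNA fragmented and 9th in the RNA fragmented small intestine library. Its ratio was 783 (686 to 897) by cDNA and 125 (103 to 154) by RNA fragmentation, and these intervals do not overlap. With each start point counted once the ratios were 8.76 and 15.7, in the opposite order.

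Apoa4 encodes an apolipoprotein that is secreted on chylomicrons after a fatty meal. Apoa4 (ENSMUSG00000032080.6, chr9:46048779-46051542, 1666 exonic bases) had 37840 and 9 reads in small intestine and colon by cDNA, and 12464 and 314 by RNA fragmentation. Its levels were 1010 and 0.218 RPKM by cDNA and 3676 and 54.2 RPKM by RNA fragmentation. Apoa4 thus had the lowest colon level of the 10 genes in one protocol and the highest in the other. The ratio was 4637 (2443 to 10142) by cDNA and 67.8 (60.6 to 76.1) by RNA fragmentation. With each start point counted once it was 311 and 8.86, and with at most 1 mismatch it was 8579 by cDNA. Its last block of 1180 bases overlaps an annotated gene on the opposite strand, but all RNA fragmented reads of Apoa4 were in the sense of the gene in both tissues. Without that block the RNA ratio was 56.7 (39.9 to 83.3).

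Apoc3 encodes an inhibitor of lipoprotein lipase and of remnant uptake. Apoc3 (ENSMUSG00000032081.3, chr9:46041016-46043719, 524 exonic bases) had 30596 and 13 reads by cDNA and 88 and 2 reads by RNA fragmentation. Its levels were 2597 and 1.0 RPKM by cDNA and 82.5 and 1.10 RPKM by RNA fragmentation. The colon levels of the protocols were close, whereas the small intestine level was 31.5-fold higher by cDNA fragmentation. The ratio was 2596 (1518 to 4876) by cDNA and 75.2 (20.2 to 631) by RNA fragmentation, the latter resting on 2 colon reads.

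Apoc2 encodes the activator of lipoprotein lipase and lies apart from the chromosome 9 genes. Apoc2 (ENSMUSG00000002992.10, chr7:20256928-20266772, minus strand, 743 exonic bases) reached 1282 RPKM in small intestine against 18.1 in colon by cDNA, and 226 and 6.19 by RNA fragmentation. The ratio was 70.7 (63.5 to 79.1) by cDNA and 36.5 (22.2 to 64.6) by RNA fragmentation, and these intervals overlap. All 16 colon reads of the RNA fragmented library lay in the last block at 4 start points. Its first block of 112 bases overlaps Apoc4 and held no read in any library.

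**Figure D3:**
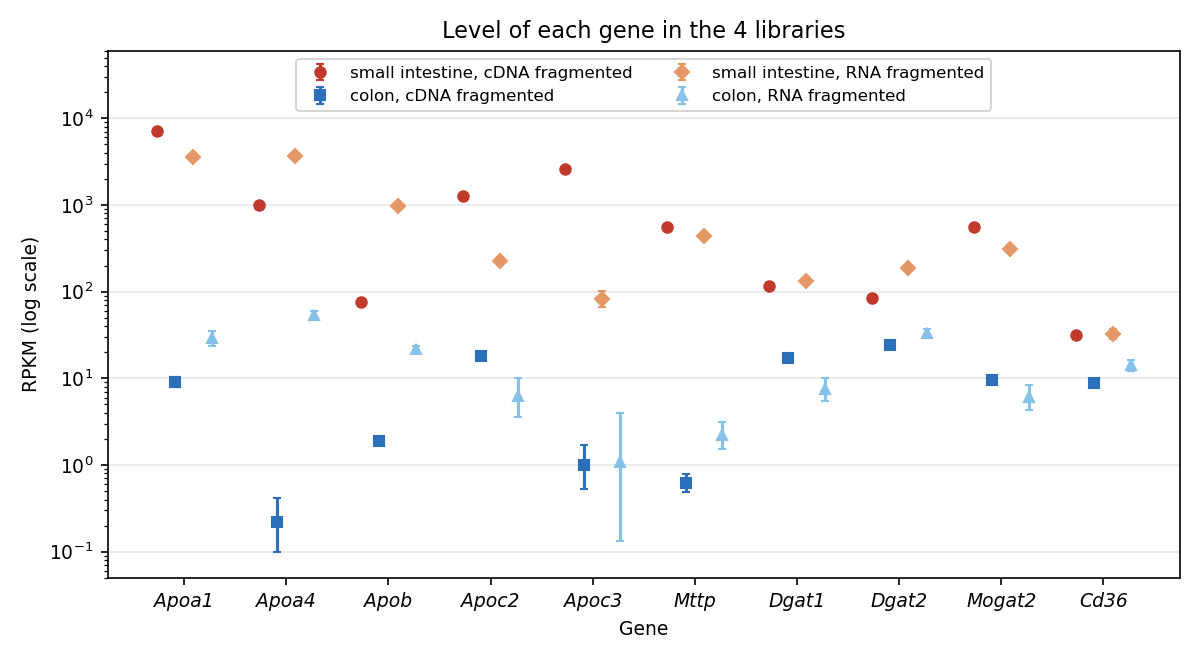
Level in RPKM (vertical axis, logarithmic) of the 10 genes (horizontal axis) in the 4 libraries, with exact Poisson intervals for counting error. For each gene both small intestine points lie above both colon points, with the smallest gap at Cd36, from 32.0 RPKM down to 14.1.

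Mogat2 and Dgat2 are neighbours on chromosome 7, both on the minus strand. Mogat2 encodes the acyltransferase that joins a fatty acid to monoacylglycerol, the main route to triglyceride in enterocytes. Mogat2 (ENSMUSG00000052396.7, chr7:106367594-106387129, 1772 exonic bases) had 556 and 9.58 RPKM in small intestine and colon by cDNA, and 314 and 6.17 RPKM by RNA fragmentation. The ratio was 58.0 (52.7 to 64.02) by cDNA and 50.9 (36.8 to 72.3) by RNA fragmentation. With Apob and Apoc2, it is one of 3 genes whose intervals over the whole gene overlap between protocols.

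Counted by reads, the enzymes of the last step to triglyceride had much smaller ratios than Mogat2. With each start point counted once, the ratios by cDNA and RNA fragmentation were 8.54 and 14.7 for Mogat2. They were 3.06 and 8.71 for Dgat1 and 2.30 and 3.99 for Dgat2. Dgat2 (ENSMUSG00000030747.4, chr7:106302173-106331223, 2251 exonic bases) had 84.6 and 24.3 RPKM in small intestine and colon by cDNA, and 189 and 33.1 RPKM by RNA fragmentation. Its ratio was 3.48 (3.27 to 3.70) by cDNA and 5.71 (4.96 to 6.58) by RNA fragmentation. Dgat1 (ENSMUSG00000022555.5, chr15:76332445-76342381, minus strand, 1755 exonic bases), which encodes an unrelated enzyme of the same reaction, had 118 and 17.2 RPKM by cDNA and 131 and 7.54 RPKM by RNA fragmentation. Its ratio was 6.82 (6.31 to 7.38) by cDNA and 17.4 (12.8 to 24.1) by RNA fragmentation. Both Dgat genes thus had the larger ratio by RNA fragmentation, with intervals that do not overlap. In the RNA fragmented colon library 5 of 46 Dgat1 reads ran against the gene (89.1% sense, 76.4% to 96.4%), while the other 9 genes had at least 99.7% sense reads in both RNA fragmented libraries.

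Cd36 encodes a membrane glycoprotein that binds long-chain fatty acids and is also made by adipocytes, endothelium and macrophages. The gene (ENSMUSG00000002944.8, chr5:17287508-17394777, minus strand, 3927 exonic bases) had 2823 and 865 reads in small intestine and colon by cDNA, and 260 and 193 by RNA fragmentation. Its levels were 32.0 and 8.88 RPKM by cDNA and 32.5 and 14.1 RPKM by RNA fragmentation. The ratio was 3.60 (3.33 to 3.89) by cDNA and 2.30 (1.90 to 2.79) by RNA fragmentation. Divided by the colon level plus 1, the RNA value was 2.15, below the limit of 3.

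The tissue ratio of Cd36 depended on the exon, and exons were grouped for this after their values had been seen. The first 4 of 17 blocks from the 5′ end held 19 cDNA reads from small intestine against 34 from colon, a ratio of 0.616 (0.332 to 1.11), and 0 and 11 reads by RNA fragmentation. Block 5 had a ratio of 1.14 (0.895 to 1.47) by cDNA and 0.997 (0.333 to 2.75) by RNA fragmentation. Blocks 6 to 16 together gave 3.61 (3.27 to 3.999) and 1.96 (1.54 to 2.50). The last block, with 1660 bases, gave 6.03 (5.13 to 7.11) and 4.29 (2.93 to 6.39). Within the last block the ratio was not even by cDNA fragmentation, where the last of 10 equal parts of the transcript gave 2.26 (1.29 to 4.07) and the part before it 12.3 (5.37 to 34.8). By RNA fragmentation the same parts gave 2.85 (0.554 to 18.3) and 4.27 (1.23 to 18.7), with intervals that overlap. Over the last 1000 bases alone, Cd36 was called higher in small intestine by RNA fragmentation as well, with a ratio of 3.89.

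Among markers of other cells that make Cd36, calls were made in the adipocyte list only. The 6 adipocyte markers, of which none was at 0, summed to 76.0 RPKM in small intestine and 367 in colon by cDNA, and to 34.2 and 187 RPKM by RNA fragmentation. Of these, 3 were called higher in colon by cDNA (Adipoq, Fabp4 and Cfd) and 1 by RNA fragmentation (Cfd). Over all genes present, 3.21% were called higher in colon by cDNA and 6.68% by RNA fragmentation. The 4 endothelial markers summed to 16.8 and 17.2 RPKM by cDNA and to 12.5 and 22.6 by RNA fragmentation, with no call. The 4 macrophage markers summed to 32.5 and 25.7 and to 16.4 and 24.3, also with no call. By RNA fragmentation the endothelial Cdh5 was 3.48-fold and the macrophage Emr1 3.43-fold higher in colon. Both missed the call through the penalty of 1. By cDNA fragmentation Emr1 was 2.46-fold higher in small intestine. After 0.1 RPKM had been added, the median log2 ratio of small intestine to colon was -1.95 by cDNA and -1.64 by RNA fragmentation for adipocyte markers. It was 0.13 and -0.86 for endothelial markers and 0.53 and -1.39 for macrophage markers. The part of these cells in the Cd36 and Dgat2 values was not tested. The 4 liver markers summed to at most 0.547 RPKM in any library.

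**Figure D4:**
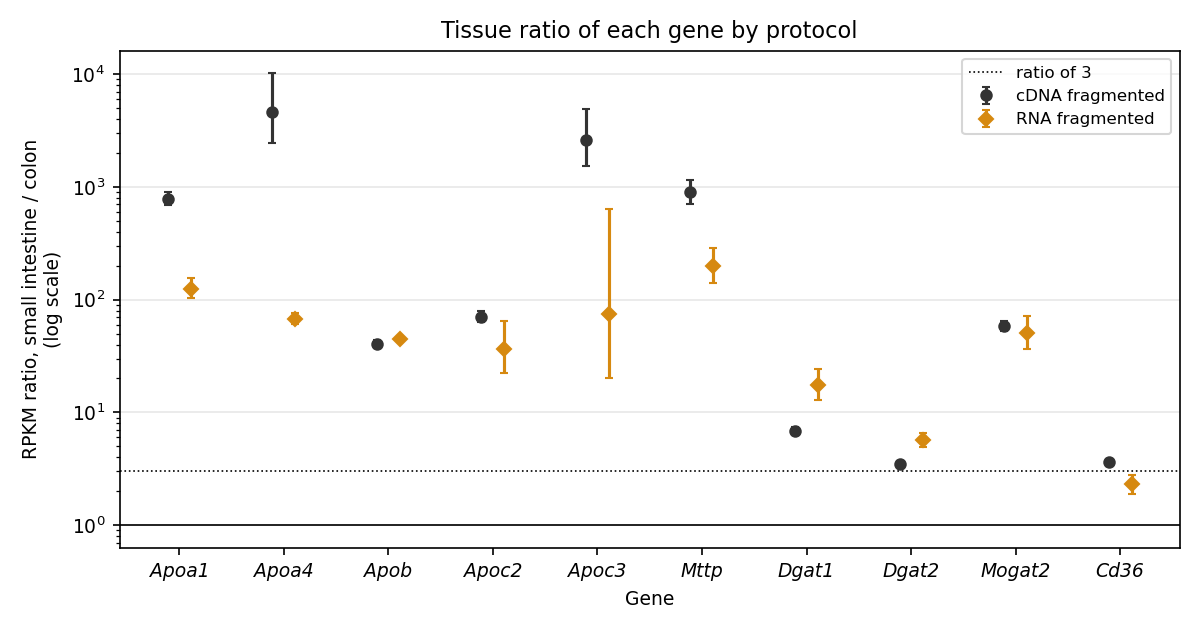
Ratio of RPKM in small intestine to RPKM in colon (vertical axis, logarithmic) for the 10 genes (horizontal axis) by protocol, with exact conditional binomial intervals for counting error, a solid line at 1 and a dotted line at 3. All 20 ratios exceed 1, and only the RNA fragmented value of Cd36, 2.30, lies below 3.

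In the order of levels, Apoa1 stood first in the cDNA fragmented small intestine library, followed by Apoc3, Apoc2 and Apoa4. Mogat2 and Mttp came next with 556 (548 to 563) and 555 (550 to 559) RPKM, which do not differ beyond counting error. By RNA fragmentation Apoa4 and Apoa1 led with 3676 (3611 to 3741) and 3613 (3530 to 3697) RPKM, again with overlapping intervals, and Apob followed. Cd36 was last in both small intestine libraries. The colon order was different: Dgat2 stood first and Apoa4 last by cDNA, whereas Apoa4 stood first and Apoc3 last by RNA fragmentation.

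Over all genes with at least 20 reads in each library of a tissue, differences between protocols went with the length of the transcript. In small intestine, genes of up to 1000 exonic bases had a median log2 ratio of RNA to cDNA fragmented RPKM of -1.80 over 489 genes, and genes above 5000 bases had 1.57 over 1840 genes. Apob, the longest of the 10, had the highest such ratio in small intestine (12.8), and Apoc3, the shortest, the lowest (0.0318). Over the 10 genes Spearman's rho between length and this ratio was 0.673 in small intestine and 0.455 in colon, given as a description, since the genes share the libraries. Not all of the 10 followed their length class. In small intestine the ratio was 0.564 for Mogat2 and 3.64 for Apoa4, against a median of 1.37 for genes of 1000 to 5000 bases. In colon it was 3.21 for Apoa1 and 1.10 for Apoc3, against a median of 0.325 for genes of up to 1000 bases. For Dgat1 it was 0.437, against a median of 1.48 for genes of 1000 to 5000 bases. Apoa4 stood apart in colon, where its RNA fragmented level was 249-fold higher. In colon Apoc3 had 13 cDNA and 2 RNA fragmented reads, and Apoa4 had 9 cDNA reads. These counts are below the 20 reads asked of the genes in the medians.

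**Figure D5:**
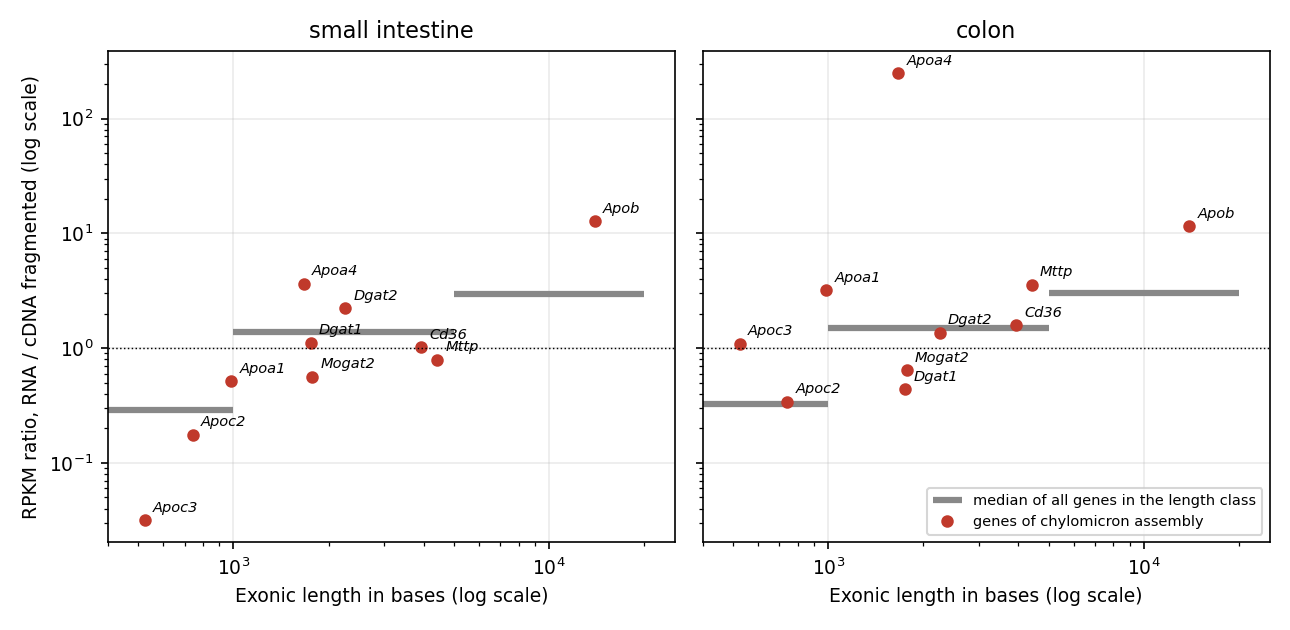
Ratio of RNA fragmented to cDNA fragmented RPKM (vertical axis, logarithmic) against exonic length in bases (horizontal axis, logarithmic) for the 10 genes in small intestine and in colon, with grey bars at the median of all genes in each length class. Apob lies above the bar of the longest class in both tissues, with 12.8 and 11.5. Apoa4 lies far above its class in colon only, at 249. In colon Apoa4 had 9 cDNA reads and Apoc3 13, fewer than the 20 asked of the genes in the bars.

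Of the 10 genes, Apoa4, Apoc3, Mttp and Apoa1 had the largest cDNA ratios. Their colon level relative to small intestine was higher by RNA fragmentation. As they were picked by the cDNA ratio, a less extreme value in the other protocol can follow from the choice alone. No effect of protocol is read from it. As a percent of the small intestine level, the colon level of Apoa4 was 0.0216% by cDNA and 1.47% by RNA fragmentation, that of Apoa1 0.128% and 0.800%, and that of Mttp 0.112% and 0.504%. For Apoa1 this order did not hold over start points, as given above, though their number is limited by the length of the gene. Apob had 2.48% and 2.23%, and Mogat2 1.72% and 1.97%. The share was lower by RNA fragmentation for Dgat1, with 14.7% and 5.75%, and for Dgat2, with 28.7% and 17.5%. It was higher by RNA fragmentation for Apoc3 (0.0385% and 1.33%), Apoc2 (1.41% and 2.74%) and Cd36 (27.8% and 43.4%). Of the 4 small intestine markers, 3 also had the higher share by RNA fragmentation. For Sis, the brush border sucrase-isomaltase, the values were 0.272% and 1.18%, for the lactase gene Lct 0.0261% and 0.839%, and for the glucose transporter Slc2a2 0.0287% and 1.02%, whereas Fabp6, the ileal bile acid binding protein, had 2.76% and 1.67%. The 3 colon markers did not all move alike. Car1, a colonic carbonic anhydrase, had 0 reads in the cDNA fragmented small intestine library against 1646110 in colon, and 68 against 25933 reads by RNA fragmentation. Aqp8, a water channel, had 3 against 39677 reads by cDNA and 5 against 1919 by RNA fragmentation. Slc26a3, a chloride and bicarbonate exchanger, had a ratio of small intestine to colon of 0.151 by cDNA and 0.122 by RNA fragmentation. Whether colon reads of the listed genes arose in colon cells was not tested.

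Tissue markers followed the labels. All 4 small intestine markers were called higher in small intestine and all 3 colon markers higher in colon in both protocols. Of 5 epithelial markers 2 (Vil1 and Krt20) were called higher in small intestine in both protocols, and Epcam differed by 1.56-fold and 1.10-fold. The other 2 were called in neither tissue, with ratios of small intestine to colon of 0.646 by cDNA and 0.455 by RNA fragmentation for Krt8 and of 0.877 and 1.39 for Cdh1. Of 4 smooth muscle markers, 3 were called higher in colon in each protocol, with Acta2 and Tagln in both, Myh11 by cDNA and Des by RNA fragmentation. They summed to 210 and 859 RPKM by cDNA and to 179 and 1421 RPKM by RNA fragmentation. Pancreatic acinar markers summed to 18.8 RPKM in small intestine and 749 in colon by cDNA, but to 2190 and 297 RPKM by RNA fragmentation. The part of these tissues in the levels of the listed genes was not tested.

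Other genes that act on lipid were described from lists. Of 17 genes of fatty acid binding, activation and particle transport, 8 were called higher in small intestine and 1 in colon by cDNA, and 9 and 2 by RNA fragmentation. Over all genes present the shares called higher in small intestine and in colon were 2.72% and 3.21% by cDNA and 3.69% and 6.68% by RNA fragmentation. The 8 genes were called in both protocols: Fabp1, Fabp2, Acsl5, Slc27a4, Soat2, Plin3, Pla2g12b and Tm6sf2. Fabp1, a cytosolic fatty acid binding protein, had 13459 and 4.75 RPKM in small intestine and colon by cDNA and 600 and 5.26 RPKM by RNA fragmentation. Acsl5, an acyl-CoA synthetase, had 1498 and 22.6 RPKM by cDNA and 420 and 58.3 RPKM by RNA fragmentation. Its relative Acsl3 went the other way, with 2.96 and 29.8 RPKM by cDNA and 9.58 and 102 RPKM by RNA fragmentation, about 10.1-fold and 10.7-fold higher in colon. Gpam, the first enzyme of the glycerol phosphate route, which competes with the route through Mogat2, had 0.848 and 2.90 RPKM by cDNA and 5.90 and 24.9 RPKM by RNA fragmentation, and was called higher in colon by the latter.

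Of 10 further apolipoprotein genes, 8 were present by cDNA and 3 by RNA fragmentation, where 7 had no read in small intestine. None was called in either direction in either protocol, and with background shares of 2.72% to 6.68% nothing is read from this count. Apoe, a ligand of remnant receptors, had 87.0 and 50.1 RPKM in small intestine and colon by cDNA, but 55.4 and 93.3 RPKM by RNA fragmentation, so its order reversed. Clu had 19.6 and 27.5 RPKM by cDNA and 11.1 and 24.8 RPKM by RNA fragmentation. Apof had 130 and 185 reads by cDNA and 0 and 1 by RNA fragmentation, and Apod 28 and 131 and then 0 and 15.

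Of 6 transcription factors of this program, 2 were called higher in small intestine in both protocols, beside 2.72% of all genes present by cDNA and 3.69% by RNA fragmentation. Hnf4g had 291 and 8.77 RPKM in small intestine and colon by cDNA and 160 and 23.2 RPKM by RNA fragmentation. Creb3l3, a membrane-bound factor of lipid metabolism, had 59.7 and 3.73 RPKM by cDNA and 104 and 3.90 RPKM by RNA fragmentation. Nr1h4, the bile acid receptor, was not called, with ratios of 0.482 by cDNA and 0.458 by RNA fragmentation.

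The lipases, receptors and their regulators, which handle the particle after secretion, numbered 10, of which 10 were present by cDNA and 8 by RNA fragmentation. Angptl4 was called higher in small intestine and Lpl higher in colon by cDNA, and Lrp1 higher in small intestine by RNA fragmentation. With background shares between 2.72% and 6.68%, nothing is read from these counts. The order of Lrp1 reversed between protocols, with a ratio of 0.493 (0.424 to 0.574) by cDNA and 4.17 (3.67 to 4.75) by RNA fragmentation. Angptl4, an inhibitor of lipoprotein lipase, had a ratio of 5.77 (4.62 to 7.26) by cDNA and 1.86 (1.001 to 3.49) by RNA fragmentation. Lpl, the lipase itself, had 2.38 and 12.5 RPKM by cDNA and 5.58 and 10.9 RPKM by RNA fragmentation. The ratios of Pltp were 0.817 and 0.827, and those of Vldlr 0.277 and 0.769.

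Among genes outside the list, the one whose 4 levels lay closest to those of Apob was Alpi, an intestinal alkaline phosphatase, at a distance of 1.44 on the scale of log2(RPKM + 1) over 4 libraries. For Mttp it was Olfm4 at 1.11, and for Cd36 it was Skil at 0.15. With 4 libraries such closeness describes levels only.

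The scaling of the libraries bears on these ratios. Scaling by the median of ratios or by the trimmed mean of M values multiplied every ratio of small intestine to colon by 1.25 to 1.27, a log2 shift of 0.32 to 0.35, and changed no call among the 10 genes. Among all genes the share of calls on the small intestine side was 45.9% by cDNA and 35.6% by RNA fragmentation, and became 58.7% and 54.1% with the median of ratios and 59.98% and 52.7% with the trimmed mean. Counting each start point once moved the ratios most. By cDNA fragmentation Dgat1, Dgat2 and Cd36 then had ratios of 3.06, 2.30 and 2.65. The ratio was 105 by cDNA and 50.6 by RNA fragmentation for Mttp, 64.1 and 37.6 for Apoc3, and 19.3 and 12.0 for Apob. As for Apoa1, the ratio became larger by RNA than by cDNA fragmentation for Apoc2, with 3.64 by cDNA and 35.9 by RNA, and for Mogat2, with 8.54 and 14.7. The number of start points is limited by the length of a gene, and Apoa1 had 98.7 reads per start point in the cDNA fragmented small intestine library against 1.16 in colon.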

How the data were processed

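The authors deposited, for 4 libraries, match files that hold the position, strand, number of color mismatches and colors of each uniquely placed read, with reports of read numbers and tables of exons and junctions of mm9. The unit used here, counts of reads, was made from these deposited positions. Per the file headers and the methods, 35 colors per read had been matched with up to 3 mismatches to exons and exon junctions, so reads outside exons are not analysed here and uniqueness was judged among exons only. The version of the matching tool is not given in the sources used here. The paper's expression values came from another matching to the whole genome.

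Exon blocks were joined to GENCODE M1 genes of the same assembly (198576 of 199684 blocks, 5038 of them overlapping more than 1 gene). Counts were made from these reads, and read and start point totals equalled those of the authors' reports in all 4 libraries. RPKM used all uniquely placed reads. Presence meant above 0.01 RPKM with at least 2 start points in at least 1 library of the protocol. The 3-fold rule with a penalty of 1 follows the study's methods. Intervals were exact Poisson for counts, conditional binomial for ratios and Clopper-Pearson for shares. Calculations used Python 3.11.15, numpy 2.4.6, pandas 2.3.3 and scipy 1.17.1, and the procedures were tested on simulated data. Depths by library stand in the report.

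The members and lists were chosen with earlier results of these data known. Of each list the 2 largest and 2 smallest cDNA ratios among genes with at least 100 reads were named, the nearest gene was named for Apob, Mttp and Cd36, and genes called in both protocols or on 1 side were added after their values were seen. One gene that this rule names is not reported here. Alternatives were fewer mismatches, start points, other scalings, a penalty of 0.1, thinning, unshared blocks, the last 1000 bases, reads inside exons, sense reads and a minimum of 10 reads.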

Additional observations from a re-analysis of the deposited data

Results flagged for a closer look

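In the list of 5 pancreatic acinar genes, 4 genes (Cel, Cpa1, Ctrb1 and Pnlip) were called in opposite tissues. They were called higher in colon by cDNA fragmentation and higher in small intestine by RNA fragmentation. Of all genes present, 3.21% were called higher in colon by cDNA and 3.69% higher in small intestine by RNA fragmentation. The share of all genes called in opposite tissues is not given here. Pnlip, the pancreatic lipase that digests dietary fat before the listed genes act, had 0 reads in small intestine and 2248 in colon by cDNA, and 1119 and 3 reads by RNA fragmentation. Cpa1 had 0 and 936 reads by cDNA and 599 and 2 by RNA fragmentation. With 1 library on each side the difference between protocols was not tested. None of the 10 listed genes was called in opposite tissues.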

How the results depend on the processing

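With 1 library per tissue and protocol no replicate was left out. A fit over both protocols with protocol as a term was not made. Of 189 ratios of single genes recomputed with other settings, 137 stayed within their counting interval, 52 moved beyond it and 0 changed direction. Some of the 137 could not move. A penalty of 0.1 does not enter the ratios, so all 20 values under it were fixed. Unshared blocks change nothing for a gene without a shared block, nor the last 1000 bases for a gene of at most 1000 bases. Start points in place of reads moved 16 of 20 ratios by over 1.5 times. They lowered the median ratio over the 10 genes from 64.4 to 8.65 by cDNA and from 47.8 to 13.3 by RNA fragmentation. They left 7 of 10 and 9 of 10 genes called, beside 2.43% and 3.54% of all genes present. At most 1 mismatch moved 4 ratios by over 1.5 times, among them Apoc3 by cDNA fragmentation (4333) and Apoc2 by RNA fragmentation (22.4). The last 1000 bases alone gave 26.2 by cDNA and 58.1 by RNA fragmentation for Apob. For Mttp they gave 2528 by cDNA fragmentation, which rests on 5 colon reads. The edited share of Apob was 100% over 6 reads with at most 1 mismatch outside the site, 85.7% of 7 combinations of start point and base and 60% of 5 reads away from read ends; the cause was not tested. Thinning the deeper RNA fragmented library left Apoc3 without a colon read and so without a ratio. Small colon counts limit some ratios, with 9 reads for Apoa4 and 13 for Apoc3 by cDNA and 2 for Apoc3 by RNA fragmentation.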

Other observations

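Outside the genes named by rule, and chosen after their values were seen, the genes closest to Apoa1 and Apoc3 over the 4 libraries were α-defensins of Paneth cells. Defa20 lay nearest to Apoa1, with 18911 and 8.03 RPKM in small intestine and colon by cDNA and 5026 and 24.9 RPKM by RNA fragmentation. Defa17 lay nearest to Apoc3, with 1600 and 0.491 RPKM by cDNA and 95.6 and 0.699 RPKM by RNA fragmentation. The α-defensins are near-identical copies of each other, so their levels are uncertain.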
